A study of Mus musculus with 4 samples.

Results

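T-box genes encode transcription factors that bind DNA through a shared domain, the T-box, and 10 of them are described here: Tbx1, Tbx2, Tbx3, Tbx4, Tbx5, Tbx6, Tbx15, Tbx18, Tbx20 and Tbx21. They were taken from the family without a rule on measured values, although earlier results of these data were known. Other T-box genes, such as Tbx19 and Tbx22, were left to a comparison list. The members are 10 of the 28883 genes with a DNA methylation level in at least 1 of 4 libraries. The libraries come from mouse C3H10T1/2 cells, a line of mesenchymal stem cells (MSCs) derived from embryos. All cells were transfected for 48 h, either with non-targeting siRNA (NC) or with siRNA against DNMT1 (siDNMT1), the enzyme that copies methylation onto the new strand after replication. Cells were then left uninduced (the NC and siDNMT1 libraries) or kept for 3 days in osteoblast (OB) medium with L-ascorbic acid, β-glycerophosphate and dexamethasone (the NC_OB and siDNMT1_OB libraries). The labels name no uninduced library kept for the same 3 days. A difference with OB can therefore not be told apart from one with added time in culture after transfection. The comparisons ask how the methylation of these genes differed with DNMT1 depletion and with early OB induction.

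Each condition is 1 library of 1 cell line, so no difference between conditions has a replicate check, and no test was made. Each deposited value is a methylation level, the fraction of CpG methylation from 0 to 1 over a whole region. A region is a gene's promoter, its 5′ UTR, exons, introns or 3′ UTR, a CpG island, or the shore flanking an island. The study's methods give a promoter as the 2 kb upstream of the start where they assign differentially methylated regions to genes. That window is taken here for the deposited promoter values. The values come without read counts, so the depth behind them is unknown. The labels call the assay reduced representation bisulfite sequencing, while the protocol describes sonicated DNA and names no restriction enzyme. How far DNMT1 was lowered, and whether the cells express the markers of their labelled type, cannot be read from methylation levels. The libraries list between 155398 and 159705 regions, and any pair of them gave the same value in 0.268% to 0.454% of shared regions, so no library repeats another. The median promoter level over all genes was 0.191, 0.188, 0.174 and 0.164 in the NC, siDNMT1, NC_OB and siDNMT1_OB libraries, and values below follow this order unless another is stated.

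T-box factors pattern the mesoderm: they set the identity of heart chambers, limbs, pharyngeal arches and somites, and several act in a strongly dose-dependent way. Tbx2 and Tbx3 are mainly repressors, whereas Tbx5 and Tbx20 drive cardiac genes, and many developmental regulators of this kind carry CpG-rich starts that are free of methylation in most tissues. Tbx2 and Tbx4, and likewise Tbx3 and Tbx5, are neighbours on their chromosomes, a linkage kept since the duplication of an ancestral pair.

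The 10 genes have 37 gene entries, of which 36 were listed in all 4 libraries: 10 for promoters, 5 for the 5′ UTR, 8 for exons, 9 for introns and 4 for the 3′ UTR. The 5′ UTR of Tbx4 was listed only in the NC (0.533) and NC_OB (0.568) libraries. Islands and shores that overlap a member gene number 19 and 30, and 48 of these 49 were listed in all 4 libraries. Coverage was uneven across the family. Tbx1 has 4 islands and 8 shores and Tbx2 has 5 and 7, whereas Tbx20 has a promoter, an intron entry and 1 shore, and Tbx6 has a promoter entry alone.

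The starts on which the later results turn are printed here so that the CpG sites behind the levels can be seen. Each window runs from 250 bases before to 50 bases after a RefSeq start (assembly GRCm38.p6), 5′ to 3′ on the minus strand, with each CpG in capitals. The Tbx1 windows belong to alternative starts whose islands differed in level, Tbx20 and Tbx18 are the members whose promoters differed most with OB induction and with DNMT1 depletion, and Tbx21 has a partly methylated start.
Tbx1, chr16:18588850-18589149: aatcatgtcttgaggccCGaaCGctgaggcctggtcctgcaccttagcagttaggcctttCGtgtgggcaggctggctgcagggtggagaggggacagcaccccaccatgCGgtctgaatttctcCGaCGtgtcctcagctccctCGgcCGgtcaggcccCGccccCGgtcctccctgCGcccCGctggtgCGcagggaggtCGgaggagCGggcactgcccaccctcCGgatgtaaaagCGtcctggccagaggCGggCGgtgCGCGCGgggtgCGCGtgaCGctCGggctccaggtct
Tbx1, chr16:18590622-18590921: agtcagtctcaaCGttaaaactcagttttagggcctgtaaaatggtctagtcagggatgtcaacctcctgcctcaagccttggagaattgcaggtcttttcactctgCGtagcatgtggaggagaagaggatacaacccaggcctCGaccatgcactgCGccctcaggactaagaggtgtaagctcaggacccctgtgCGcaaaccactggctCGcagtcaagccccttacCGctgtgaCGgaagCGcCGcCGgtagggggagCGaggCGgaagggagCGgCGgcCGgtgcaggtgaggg
Tbx20, chr9:24774254-24774553: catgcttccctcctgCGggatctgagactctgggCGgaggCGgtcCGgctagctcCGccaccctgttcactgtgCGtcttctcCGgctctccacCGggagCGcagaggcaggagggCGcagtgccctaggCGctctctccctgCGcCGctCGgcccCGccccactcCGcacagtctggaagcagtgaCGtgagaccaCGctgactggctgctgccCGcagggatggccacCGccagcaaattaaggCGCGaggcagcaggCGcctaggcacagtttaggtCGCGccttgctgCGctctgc
Tbx18, chr9:87731211-87731510: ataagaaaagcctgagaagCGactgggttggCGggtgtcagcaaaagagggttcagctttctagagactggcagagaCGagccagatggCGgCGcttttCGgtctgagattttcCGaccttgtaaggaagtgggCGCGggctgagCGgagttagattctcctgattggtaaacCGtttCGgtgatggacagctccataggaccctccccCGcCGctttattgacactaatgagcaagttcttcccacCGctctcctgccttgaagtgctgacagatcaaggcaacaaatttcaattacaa
Tbx21, chr11:97115282-97115581: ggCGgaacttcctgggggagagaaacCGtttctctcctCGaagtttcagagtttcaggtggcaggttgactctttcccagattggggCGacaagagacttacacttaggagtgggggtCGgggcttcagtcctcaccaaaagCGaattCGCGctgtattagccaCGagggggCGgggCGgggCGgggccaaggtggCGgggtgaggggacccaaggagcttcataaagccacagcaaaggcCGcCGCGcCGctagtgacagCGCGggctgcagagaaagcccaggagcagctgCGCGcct
These windows hold 26, 16, 26, 15 and 21 CpG, against a median of 7 over 32851 RefSeq promoter windows. RefSeq windows were matched for 6 of the 10 members, and 2 of them, Tbx4 and Tbx6, were less rich, with 8 and 7 CpG. The core of the T-box binding site, AGGTGTG, which reads CACACCT on the other strand, was searched on both strands and overlaps no other motif searched. It was found in 0 of the 7 member windows and in 5.84% of all windows, which says only that these letters are not in these windows.

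Promoters of the T-box genes were more methylated than the typical promoter. In NC cells their median level was 0.498 (lowest 0.0232, highest 0.679), above 74.0% of all promoters, whose median was 0.191. In all, 7 of 10 members had a mean level of at least 0.3, as did 40.7% of 20152 promoters. The same count was 3 of 4 for Gata2 to Gata6, factors of blood and heart, 17 of 34 for Hox genes, which pattern the body axis, and 12 of 32 for forkhead (Fox) genes. Among the other T-box genes it was 3 of 6: Tbx22, a palate gene, stood at a mean of 0.565, Tbx19, a pituitary factor, at 0.462 and Tbr1, a cortical neuron factor, at 0.323, above Eomes (0.218), T (0.139) and Mga (0.116). A share above that of all promoters was thus also seen in Gata2 to Gata6, over only 4 promoters, in Hox genes and in the other T-box genes, but not in Fox genes (37.5%). High promoter levels were not tested as a property of the T-box.

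Tbx4, the hindlimb factor, had the most methylated promoter, with levels of 0.679, 0.682, 0.701 and 0.673. Tbx21, which encodes the T cell factor T-bet, followed with 0.666, 0.642, 0.683 and 0.669. The ranges of these neighbours overlap, so their order is not set, and no library of either reached down to Tbx2. Tbx2, a repressor in heart and limb, had 0.609, 0.576, 0.546 and 0.537, Tbx18, a factor of sinus node and ureter mesenchyme, 0.540, 0.519, 0.583 and 0.472, and Tbx20, a cardiac factor, 0.571, 0.574, 0.438 and 0.431. Tbx6, which acts in somite precursors, had 0.457, 0.466, 0.465 and 0.445, and Tbx1, a pharyngeal arch factor lost in DiGeorge syndrome, 0.456, 0.50, 0.375 and 0.380. From Tbx2 to Tbx1 each gene overlapped the next one in its range over libraries. A gap of 0.158 in mean level separated Tbx1 from Tbx3, and no library bridged it.

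The remaining promoters were lower than these, although Tbx3 stood above 57.0% and Tbx5 above 51.2% of all promoters. Tbx3, a repressor that marks limb borders and mammary buds, had 0.270, 0.271, 0.272 and 0.268, the narrowest range of all 10 promoters. Tbx5, the forelimb and heart factor, had 0.208, 0.207, 0.177 and 0.190. Tbx15, which acts in limb skeleton and in adipose tissue, had 0.0232, 0.0477, 0.0170 and 0.0193, and stood above 26.1% of promoters. The ranges of Tbx3, Tbx5 and Tbx15 did not overlap. Each of the 4 libraries is a different condition, so these ranges hold the effect of treatment along with any other variation.

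**Figure D1:**
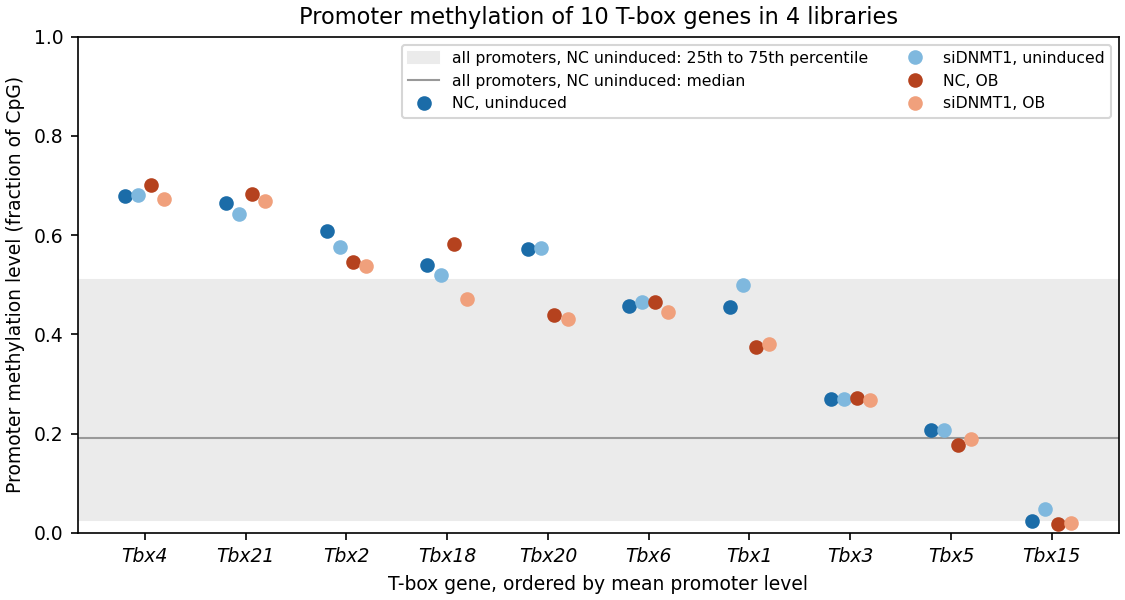
Promoter methylation level (fraction of CpG, y axis) of the 10 T-box genes, ordered by mean level, with 1 point per library and the grey band spanning the 25th to 75th percentile of all promoters in NC cells (0.0264 to 0.510). The points of Tbx4 and Tbx21 lie between 0.642 and 0.701 and those of Tbx15 below 0.05, while the OB libraries of Tbx20 and Tbx1 sit under their uninduced libraries.

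Over the 4 libraries the promoter most like that of Tbx4, among the 94 other promoters of the comparison lists, was Tbx21, with a mean absolute difference of 0.0185. Hoxa9 (0.0278) and Hoxa3 (0.0480) came next. Hoxa9 had 0.702, 0.694, 0.668 and 0.630, so it was lower with OB induction with both siRNAs, unlike Tbx4.

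Promoter level and the level of the annotated start often differed within a gene. The Tbx3 promoter stood near 0.27, yet the island over its coding starts (chromosome 5, 119670094-119671401, GRCm38) had 0.0192, 0.0164, 0.0127 and 0.0157, and its 5′ UTR had 0.0156, 0.0260, 0.00667 and 0.0195, the lowest 5′ UTR by mean. The Tbx2 promoter stood above 0.53, yet the island over its start (chromosome 11, 85832090-85833596) had 0.0946, 0.0900, 0.0902 and 0.0852. Both genes therefore combined an island start under 0.1 with more methylated upstream sequence. The shore that covers most of the Tbx2 upstream window (1894 of 2000 bases) had 0.609, 0.579, 0.556 and 0.537, close to the promoter entry in every library. The antisense gene Tbx3os1 runs over the Tbx3 start and 2610027K06Rik starts in the Tbx2 upstream window, so these levels belong to shared sequence.

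The Tbx18 start showed the same contrast over a shorter distance. The island just inside the gene (chromosome 9, 87729486-87731049), which begins 211 bases after the start, had 0.0188, 0.0197, 0.0156 and 0.0181. The adjoining shore, which holds the start and the printed Tbx18 window, had 0.842, 0.845, 0.847 and 0.833. The island was free of methylation beside a highly methylated shore in all 4 libraries. At Tbx21 the order was the same and the island less bare. Its start island (chromosome 11, 97114567-97115439), which shares 158 bases with the printed window, had 0.234, 0.234, 0.178 and 0.167, under a promoter between 0.642 and 0.683. Both OB libraries were lower than both uninduced libraries in the Tbx21 island, whereas the promoter was higher with OB by 0.0174 and 0.0270. The promoter entry had the same 4 values as the shore upstream of the island, which covers 1892 of the 2000 bases upstream of the start.

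Tbx4 differed from Tbx2, Tbx3 and Tbx18 in that its start islands were methylated. The island over its more upstream start (chromosome 11, 85886268-85886603) had 0.591, 0.566, 0.561 and 0.564. The island over a start further in (85890030-85890257) had 0.609, 0.683, 0.626 and 0.531, and was lowest in siDNMT1_OB. Both islands are short, 336 and 228 bases.

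For Tbx15 the entries around the start differed from each other. The promoter entry was under 0.05 in every library, while the shore over the most upstream coding start (chromosome 3, 99238888-99240887), which covers 1493 of the 2000 bases upstream of it, had 0.429, 0.442, 0.379 and 0.480. The island over the start of the CCDS transcript, further into the gene (99253631-99254149), had 0.0166, 0.0207, 0.0177 and 0.0170, near the promoter entry. Which start the Tbx15 promoter entry describes is not given in the sources used here. The 5′ UTR (0.0304, 0.0403, 0.0418 and 0.0325) and the exons (0.0187, 0.0235, 0.0248 and 0.0195, the lowest exon entry of the family) were as low as that island, whereas the introns had 0.556, 0.568, 0.555 and 0.547. The same caution holds for Tbx5, whose RefSeq start lies 36.2 kb upstream of the GENCODE start.

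Over the 19 islands, 6 had a mean level under 0.1 (31.6%, against 61.7% of 14095 islands) and 4 had at least 0.75 (21.1%, against 7.56%). The T-box islands thus held fewer bare and more filled islands than islands at large, which were not matched to them in position or length. The filled islands were 1 of Tbx1 and 3 of Tbx2, all of them between 281 and 676 bases long. Of all islands with at least 0.75, 81.9% were under 700 bases, so this length is near the background. All 6 islands of at least 900 bases had a mean over the libraries under 0.5, as did 92.1% of all islands of that length. In all, 11 of 22 coding starts of the family lay in a listed island, from 6 of the 10 genes. Islands without a deposited level are not counted.

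The linked pairs differed along the gene body. Tbx2 and Tbx4 lie 44.5 kb apart on chromosome 11, and Tbx3 and Tbx5 lie 148 kb apart on chromosome 5. The introns of Tbx2 had 0.793, 0.783, 0.806 and 0.774, the highest intron entry of the family, and those of Tbx4 had 0.548, 0.560, 0.566 and 0.544. The introns of Tbx3 had 0.101, 0.0870, 0.0806 and 0.0750, the lowest of the family, and those of Tbx5 had 0.211, 0.201, 0.20 and 0.192. No library of the chromosome 5 pair reached any library of the chromosome 11 pair. The exons kept the order of the pairs, with the order inside each pair turned round: Tbx4 had 0.723, 0.724, 0.722 and 0.699, the highest exon entry, and Tbx2 0.590, 0.605, 0.566 and 0.599, against 0.293, 0.30, 0.257 and 0.220 for Tbx3 and 0.152, 0.147, 0.150 and 0.132 for Tbx5.

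Tbx4 also had the most methylated 3′ UTR, with 0.742, 0.734, 0.738 and 0.721. The Tbx2 gene body held the island of highest mean level in the family, at 0.891, 0.891, 0.884 and 0.887 (chromosome 11, 85837773-85838448), and a shore at 0.885, 0.861, 0.881 and 0.853, whose values are the same as those of an island inside it. That shore was the highest by mean, but another Tbx2 shore (0.872, 0.867, 0.869 and 0.869) was higher in both siDNMT1 libraries, so their order is not set. Inside Tbx3, levels went up with distance from the start: the shore next to the start island had 0.0283, 0.0194, 0.0223 and 0.0189, the lowest shore of the family by mean, and the most distant one had 0.731, 0.763, 0.728 and 0.670. In Tbx5 the nearer of its islands (chromosome 5, 119844998-119845222) had 0.0900, 0.0859, 0.0811 and 0.0703, and the farther one (119866909-119867127) had 0.443, 0.393, 0.40 and 0.443.

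**Figure D2:**
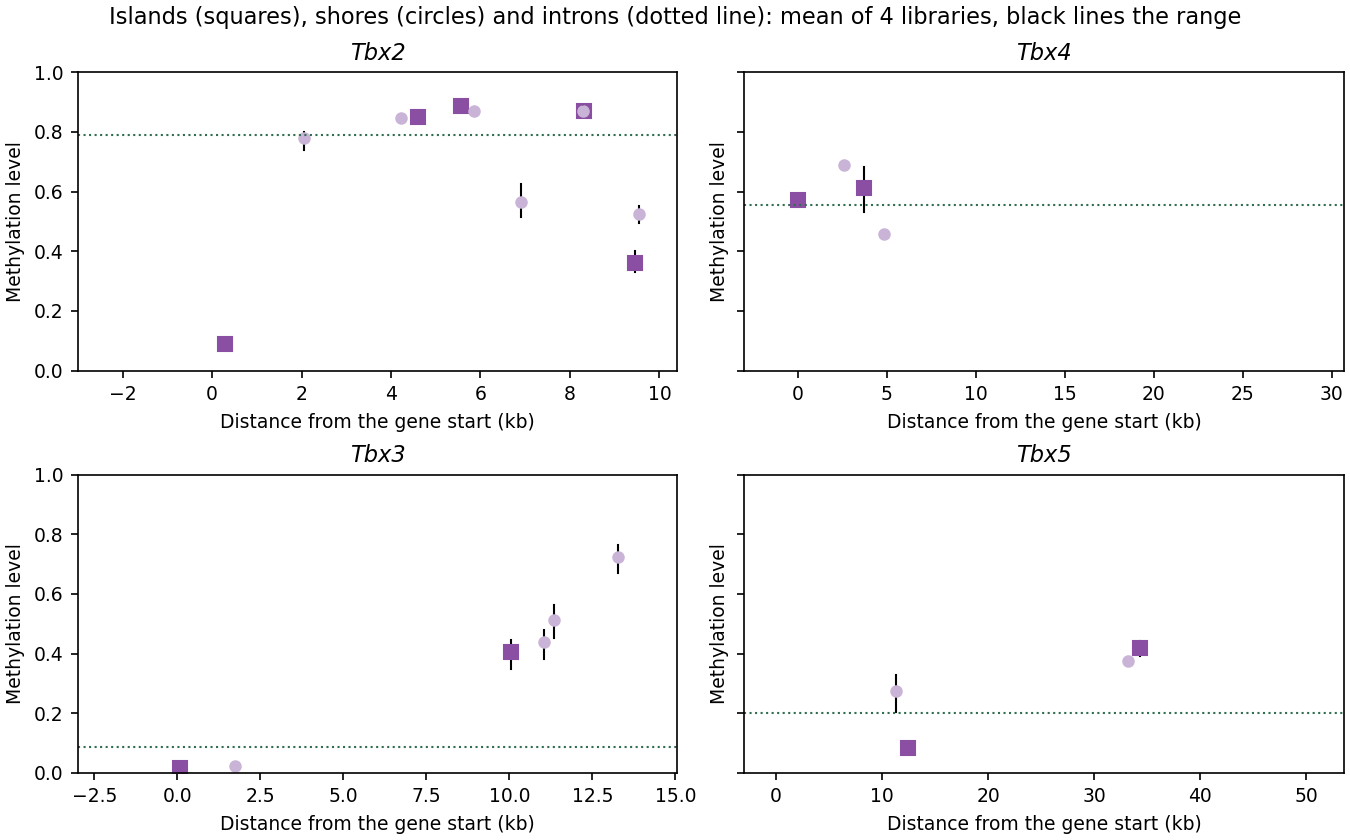
Mean methylation level over 4 libraries (y axis) of islands (squares) and shores (circles) against distance of their midpoint from the gene start (kb, x axis) in the linked genes Tbx2, Tbx4, Tbx3 and Tbx5, with black lines for the range over libraries and a dotted line at the mean intron level. The start islands of Tbx2 and Tbx3 lie under 0.1 and those of Tbx4 between 0.5 and 0.7, while the dotted line stands at 0.789 in Tbx2, 0.555 in Tbx4, 0.0860 in Tbx3 and 0.201 in Tbx5.

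OB induction was the comparison in which most member regions differed, and the difference was towards lower levels. The OB contrasts in NC and in siDNMT1 cells share no library. In NC cells, 3 of 36 gene entries were at least 0.1 lower with OB (1.32% of 76155 entries over all genes were) and 0 at least 0.1 higher (0.812%). In siDNMT1 cells 4 were lower (2.41%) and 0 higher (0.973%). The same 3 entries, the Tbx1 5′ UTR and the promoter and introns of Tbx20, were lower by at least 0.1 with both siRNAs (0.511%). Of the 48 islands and shores, 4 were lower with OB in NC cells (1.48% of 30534) and 0 higher (0.606%), and 6 were lower in siDNMT1 cells (2.39%) and 0 higher (0.599%). With both siRNAs 2 were lower (0.56%), an island and a shore of Tbx1. The share of member regions that were lower was above the background in each, but it rested mostly on Tbx1 and Tbx20, whose entries and islands cover overlapping sequence and do not count separately. The background was also not matched on level, and members stood higher. Of all promoters 42.0% had a mean level under 0.1, against 1 of 10 members, as did 61.7% of all islands, against 31.6% of member islands. A region near 0 has little room to be 0.1 lower. With each library centred on the median of its class, the Tbx1 promoter (0.0960) and the Tbx1 shores at 6.6 kb (0.0810) and 10.0 kb (0.0729) were no longer past 0.1 in siDNMT1 cells, nor the Tbx20 shore (0.0850) in NC cells, and a Tbx5 shore was then 0.118 higher with OB in siDNMT1 cells.

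**Figure D3:**
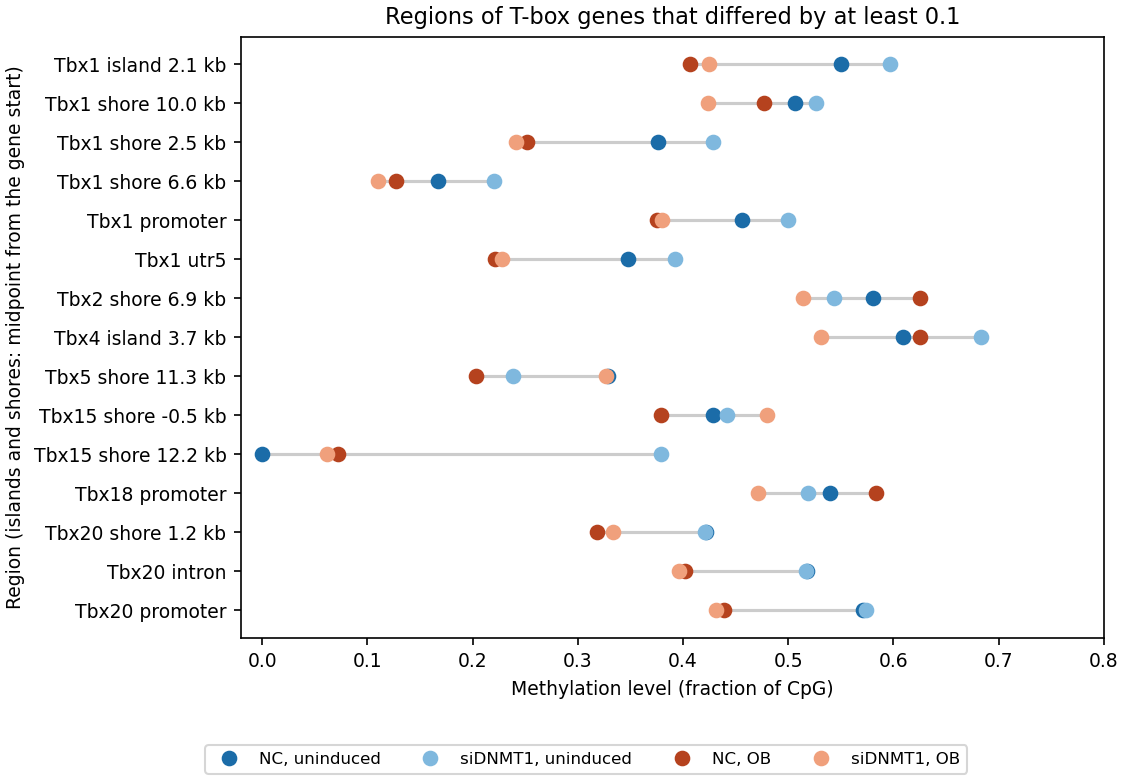
Methylation level (fraction of CpG, x axis) in the 4 libraries, 1 point each, for the 15 T-box regions that differed by at least 0.1 in any comparison, with the midpoint of islands and shores given in kb from the gene start and grey lines joining the lowest and highest library. In the Tbx1 and Tbx20 regions both OB points lie to the left of both uninduced points, and the Tbx15 shore at 12.2 kb runs from 0 to 0.379.

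Across the family the lower levels with OB were common but mostly small. With both siRNAs 24 of 36 gene entries (66.7%) and 33 of 48 islands and shores (68.8%) were lower with OB by any amount, against 48.6% and 55.5% over all genes and islands. These shares over all regions were not matched to the members in level either. Both OB libraries were under both uninduced libraries in 18 gene entries (37.2% of all entries) and 25 islands and shores (44.7%), and over both in 3 (9.25%) and 0 (6.55%). The median promoter difference of the 10 members was -0.00200 in NC cells, where 5 promoters were lower and 5 higher, and -0.0244 in siDNMT1 cells, where 9 of 10 were lower. Over all promoters 63.4% and 73.1% were lower, and the medians were -0.00320 and -0.00654. With each library centred on its promoter median, the member medians became 0.0151 in NC cells and -0.000535 in siDNMT1 cells, so neither median was stable.

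Tbx20, which cardiomyocytes need for chamber growth, had the largest OB difference of any member promoter. Its promoter, 0.571, 0.574, 0.438 and 0.431, was 0.133 lower with OB in NC cells and 0.142 lower in siDNMT1 cells, and both OB libraries lay well under both uninduced ones. Promoters of a mean level between 0.5 and 0.75 were lower by at least 0.1 in 2.01% of cases in NC cells and in 3.65% in siDNMT1 cells, and Tbx20 was 1 of 5 members in that band in each. The introns gave 0.518, 0.517, 0.402 and 0.396, and the single shore 0.422, 0.421, 0.318 and 0.333. All 3 regions separated by induction, and within a pair of the same induction state the siRNAs differed by at most 0.0153. The printed Tbx20 window, with 26 CpG, is richer than 83.1% of promoter windows, although no island overlapping the gene was listed.

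Tbx1 was lower with OB in every region listed. All 5 gene entries and all 12 islands and shores were lower with OB with both siRNAs. Over all genes and islands 48.6% of entries and 55.5% of islands and shores were. This was not particular to Tbx1, as all 6 islands and shores of Tbx3 were lower with both siRNAs. Its island at 119680408-119681017 on chromosome 5 was lower by 0.0589 in NC cells and 0.0962 in siDNMT1 cells, short of 0.1. The Tbx1 5′ UTR had 0.348, 0.392, 0.221 and 0.228, lower by 0.127 and 0.164 with OB. Its mean of 0.297 was the highest among the member 5′ UTRs listed in all 4 libraries, next to 0.272 for Tbx5. The Tbx5 5′ UTR was higher in both OB libraries (0.295 and 0.282). The Tbx4 5′ UTR was higher in the NC (0.533) and NC_OB (0.568) libraries, the only ones that list it. Of 5′ UTRs with a mean between 0.1 and 0.3, 3.8% were at least 0.1 lower with OB in NC cells and 4.93% in siDNMT1 cells, and Tbx1 was 1 of 2 members in that band. The Tbx1 promoter entry, 0.456, 0.50, 0.375 and 0.380, was 0.0808 lower in NC cells and 0.120 lower in siDNMT1 cells. The shore at -2053 to -53 bases from the most upstream start had 0.745, 0.774, 0.736 and 0.760, lower by only 0.00935 and 0.0135. Which of the Tbx1 starts the promoter entry describes is not given in the sources used here. The 3′ UTR had 0.241, 0.259, 0.154 and 0.161, and was the least methylated of the 4 listed.

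The difference with OB was unequal along Tbx1, which has 3 coding starts, each in its own island on chromosome 16. The island over the most upstream start (18590443-18590723, 26 CpG) had 0.893, 0.876, 0.858 and 0.859. The island over the next start (18588043-18589039, 80 CpG) had 0.550, 0.597, 0.406 and 0.424, lower by 0.144 and 0.173 with OB. The island over the third, the start of the CCDS transcript (18586256-18587212, 133 CpG), had 0.0117, 0.0168, 0.00937 and 0.0144, the lowest island of the family by mean. Islands at the ends of this series, filled and bare, moved by at most 0.0349 with OB, and the intermediate one moved most. Shores over the starts stepped down in the same way: both shores over the upstream start had 0.843, 0.835, 0.828 and 0.821, those over the next start 0.731, 0.765, 0.677 and 0.687 on its upstream side and 0.376, 0.429, 0.252 and 0.242 on its downstream side, and that over the CCDS start 0.0404, 0.0582, 0.0359 and 0.0372. The printed windows lie over the first 2 of these islands, with 190 bases in the intermediate one and 102 in the filled one.

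The shores and the island further along Tbx1 had the same direction. The shore downstream of the intermediate start, which covers its island, was lower by 0.124 and 0.187. The shore at 6.6 kb had 0.167, 0.221, 0.127 and 0.110, and the last one, at 10.0 kb, 0.506, 0.526, 0.477 and 0.424, and each of these was at least 0.1 lower with OB in siDNMT1 cells only. A further island (18581663-18583035) had 0.155, 0.191, 0.0929 and 0.0977, lower by 0.0620 and 0.0936. In all of these regions siDNMT1 was the highest of the 4 libraries. At the 10.0 kb shore siDNMT1_OB was also 0.0534 under NC_OB, more than the 0.0201 by which siDNMT1 exceeded NC. Shores overlap islands and each other in part, so these are not separate measurements.

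**Figure D4:**
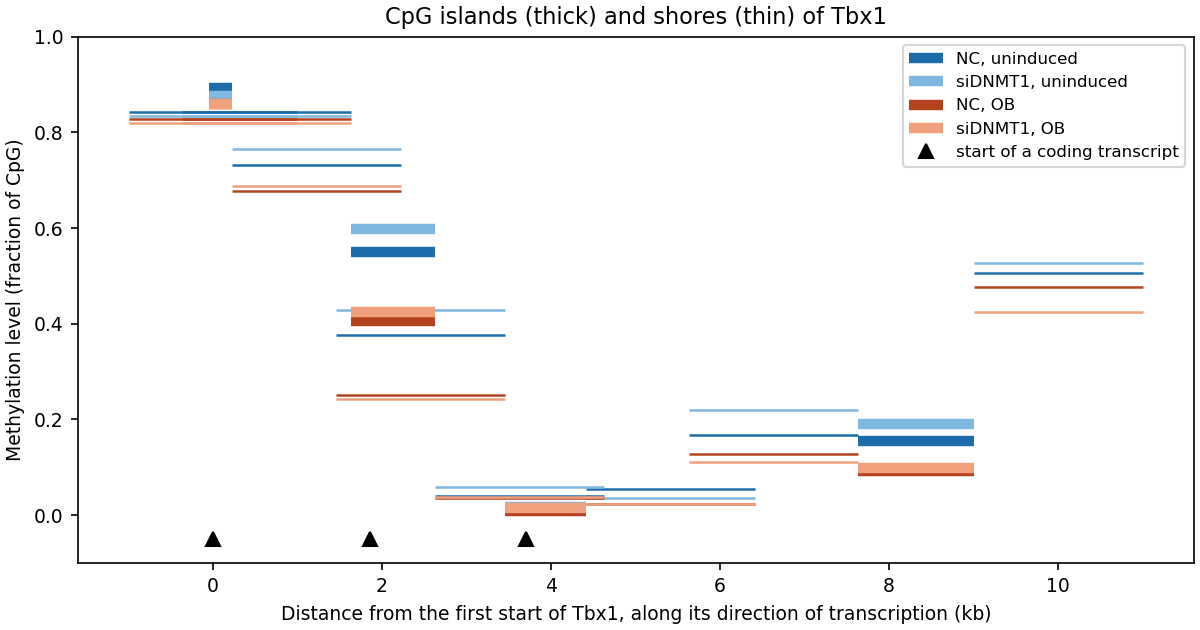
Methylation level (fraction of CpG, y axis) of the CpG islands (thick bars) and shores (thin bars) of Tbx1 in 4 libraries, against distance from its first start in the direction of transcription (kb, x axis), with triangles at the coding starts. The islands at the 3 starts lie between 0.858 and 0.893, between 0.406 and 0.597, and under 0.02, and OB bars lie under uninduced bars at the intermediate start and at the island near 8 kb.

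DNMT1 depletion was accompanied by few differences in T-box genes. In uninduced cells 0 of 36 gene entries were at least 0.1 lower (0.848% of all entries) and 0 at least 0.1 higher (0.691%), and the member promoter with the largest difference was Tbx1, 0.0435 higher in siDNMT1. After OB induction 1 entry, the Tbx18 promoter, was lower (1.44%) and 0 were higher (0.724%). In islands and shores the counts were 0 lower (0.59%) and 1 higher (0.662%) in uninduced cells, and 1 lower (1.14%) and 2 higher (0.567%) after OB. With each library centred on the median of its class, the lower shore, of Tbx2, came to 0.0991 and was no longer counted. The median promoter difference of the members was 0.00160 in uninduced cells and -0.00776 after OB, against -0.000713 and -0.00371 over all promoters, and centring each library turned the sign of the value after OB. Both siDNMT1 libraries were under both NC libraries in 6 gene entries (21.8% of all entries) and 13 islands and shores (16.9%), and over both in 2 (9.45%) and 2 (11%). The 13 islands and shores are 27.1% of the 48, above the background. In Tbx2, 10 of 11 islands and shores were lower with siDNMT1 in each induction state, most of them by small amounts. Over all islands and shores 51.5% were lower by any amount before induction and 62.9% after it. Islands and shores overlap in part and do not count separately. The other member counts are too small to set the family apart from the background.

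The Tbx18 promoter had 0.540, 0.519, 0.583 and 0.472, so it was 0.112 lower in siDNMT1_OB than in NC_OB and 0.0211 lower in siDNMT1 than in NC. The difference of the 2 effects, after minus before induction, was -0.0905, the largest in size among the 10 promoters. NC_OB was the highest and siDNMT1_OB the lowest library, and the uninduced libraries lay between them. Among promoters of its mean level, 2.86% were lower by at least 0.1 in this comparison, and Tbx18 was 1 of 5 members in that band. The shore that covers 1790 of the 2000 bases upstream of the start, with 0.842, 0.845, 0.847 and 0.833, was 0.0145 lower. The promoter entry thus gave another level and another difference than the shore over most of the window taken for it. Which CpG sites each value rests on is not given in the sources used here. D030062O11Rik, transcribed in the opposite direction, overlaps this start.

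The other member regions that differed by at least 0.1 with DNMT1 depletion were shores of Tbx15, Tbx5 and Tbx2. A Tbx15 shore (12.2 kb into the gene, next to the island over the CCDS start) was listed at 0 in NC, at 0.379 in siDNMT1, at 0.0723 in NC_OB and at 0.0615 in siDNMT1_OB. It was the only member region that differed by more than 0.2 in any comparison, and it stood high in siDNMT1 alone, so that it was also 0.318 lower with OB in siDNMT1 cells. The shore over the upstream Tbx15 start was 0.101 higher in siDNMT1_OB than in NC_OB and 0.0130 higher before induction. A Tbx5 shore 11.3 kb into the gene had 0.329, 0.239, 0.203 and 0.327, lower with siDNMT1 by 0.0903 before induction and higher by 0.124 after it. A Tbx2 shore at 6.9 kb had 0.580, 0.543, 0.625 and 0.514, lower by 0.111 after induction. The Tbx4 island at 3.7 kb stayed short of 0.1 in both: siDNMT1 was 0.0740 higher before induction and 0.0948 lower after it, and in siDNMT1 cells the level was 0.152 lower with OB. Directions differed between these regions and, for the Tbx15 shore at 12.2 kb, the Tbx5 shore and the Tbx4 island, between induction states, and the spread between libraries of 1 condition is unknown.

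Genes linked to T-box function were also examined at their promoters. Of 15 targets and partners listed, 10 had a promoter level in all 4 libraries, and 0 differed by at least 0.1 in any comparison. Over all promoters 1.48% and 2.19% did so with DNMT1 depletion before and after induction, and 2.17% and 3.36% with OB in NC and siDNMT1 cells, so a count of 0 among 10 is near the background. Ripply2, a Tbx6 target in somites, had 0.359, 0.321, 0.277 and 0.269, and Mesp2, another, had 0.401, 0.377, 0.341 and 0.331. Both were lower in each OB library than in either uninduced library. So were Dll1, Fgf10, Fgf8, Isl1, Pitx1 and Cdkn2a of the same list, but not Hand2 or Gata4. Of the gene entries over all genes, 37.2% were. Cdkn2a, a gene that Tbx2 and Tbx3 repress, had 0.0156, 0.0179, 0.0142 and 0.0144 and was the least methylated of the 10. Gata4, a partner of Tbx5, was the most methylated, with 0.474, 0.502, 0.476 and 0.454. The median OB difference of the 10 promoters was -0.0308 in NC cells and -0.0467 in siDNMT1 cells, larger in size than the -0.00320 and -0.00654 over all promoters. It was not particular to these targets: Gata2 to Gata6 gave -0.0320 and -0.0418 and Hox genes -0.0242 and -0.0312, while Fox genes gave -0.00432 and -0.0109. None of these lists was matched to all promoters in level. The other T-box genes gave -0.0177 and -0.0182 over 6 promoters, with 0 past 0.1, again near the background, and the cause of these differences was not tested.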

How the data were processed

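DNA methylation was read in 4 libraries of C3H10T1/2 cells, 1 per condition, grouped by the treatment in the sample labels. Per the study's methods and the submitters' processing notes, base calling used CASAVA, reads were filtered with Trimmomatic (version 0.36) and aligned to mm10 with Bismark (version 0.16.3). The authors deposited 1 value per region and library, a methylation fraction from 0 to 1, with no read counts. The coverage minimum for a region and the weighting of its cytosines are not given in the sources used here, so depth and counting error are unknown and sites could not be filtered on coverage. A level can therefore rest on few reads, and differences between regions of unequal coverage are not equally firm.

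Member genes were matched by Ensembl identifier to GENCODE vM21, and islands and shores were assigned to a member when they overlap its gene body. The members, lists and threshold were chosen with earlier results of these data known. Island starts are counted from 0 in the files, and 19 of 19 member islands then start and end with CG on GRCm38. Positions here count from 1. Only regions that every library lists were compared, and a difference of at least 0.1 was counted. With 1 library per condition no p-value or replicate error exists, so member counts stand beside the same share over all regions. All 10 members are named with their promoter levels. Their other regions are given where they differ by at least 0.1, hold an annotated start, or are the highest or lowest of their class. A gene on another list is given only as an example from it, and the examples were chosen after their values were seen. Promoter windows of 300 bases came from RefSeq (GRCm38.p6). Alternatives covered the threshold, the regions compared, centring, the regions counted, the overlap with the gene and the family list. The functions were tested on simulated data. Python 3.11.15, pandas 2.3.3, numpy 2.4.6, pysam 0.24.0 and matplotlib 3.10.9 were used.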

Additional observations from a re-analysis of the deposited data

How the results depend on the processing

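With 1 library per condition no library could be left out. No paired analysis was possible because each group holds 1 library and the result comes from no test. Under the alternatives 32 values stayed close to the reported one and 24 moved. At a threshold of 0.05, member gene entries past it numbered 2 (siDNMT1_OB against NC_OB), 7 (OB in NC cells) and 11 (OB in siDNMT1 cells), and islands and shores 6 and 7 with DNMT1 depletion before and after induction and 12 and 16 with OB in NC and siDNMT1 cells. At 0.2, 0 gene entries remained in these 3 comparisons, and islands and shores numbered 0 (siDNMT1_OB against NC_OB), 0 (OB in NC cells) and 1 (OB in siDNMT1 cells, the Tbx15 shore). Centring each library on its promoter median gave member medians of 0.00489, 0.00228, 0.0151 and -0.000535 for siDNMT1 before and after induction and for OB in NC and siDNMT1 cells, so those for siDNMT1 after induction and OB in NC cells changed sign. With 5′ UTR entries these medians were 0.00998, 0.00295, 0.0113 and -0.00652, over 5 genes. With all 16 T-box promoters they were -0.000345 before induction, and -0.0105 and -0.0207 for OB. The cause was not tested beyond the construction of each alternative. Unknown depth limits every single region.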

Other observations

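Islands and shores upstream of the members, which do not overlap the body of the member itself, were methylated in all 4 libraries. Some of them overlap another gene, as the Tbx3 shore does with Tbx3os1. An island upstream of Tbx1 (chromosome 16, 18591673-18591958) had 0.745, 0.774, 0.736 and 0.760 in the NC, siDNMT1, NC_OB and siDNMT1_OB libraries. The Tbx1 shore at -2053 to -53 bases, given above, has the same 4 values, so the 2 do not count separately. The island was lower with OB by 0.00935 in NC cells and 0.0135 in siDNMT1 cells, next to 0.0808 and 0.120 for the Tbx1 promoter entry. The shore upstream of Tbx4 (chromosome 11, 85884267-85886266) had 0.770, 0.762, 0.781 and 0.752, and that upstream of Tbx3 (chromosome 5, 119668093-119670092) had 0.674, 0.654, 0.668 and 0.642. The Tbx3 shore stood beside a start island under 0.02 in every library, whereas the Tbx4 shore stood beside a start island between 0.561 and 0.591. Inside Tbx15, the island next to the most upstream start (chromosome 3, 99240889-99241581) had 0.646, 0.654, 0.660 and 0.646 and did not differ by 0.1 in any comparison.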
